A study of Homo sapiens with 12 samples.

Results

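Described here is a difference of differences: how far the transcriptional response of human aortic endothelial cells to the Notch ligand DLL4 departed, gene by gene, between a line targeted at TSPAN14 (called TKO) and a control line (called NT). For each gene it is (DLL4 minus IgG in TKO cells) minus (DLL4 minus IgG in NT cells). The scale is log2(TPM + 1), where TPM is a transcript abundance normalised to a fixed sum per library. It rests on 8 of the 12 libraries of the series, 2 for each line on each coating. It covers 13299 of 35587 gene symbols, those that reached 1 TPM in 2 or more of all 12 libraries. The cells are TeloHAEC, a human aortic endothelial line immortalised with telomerase. NT cells are labelled wild type, and TKO cells are labelled as carrying a TSPAN14 knockout made with Cas9 and a guide RNA. Cells of both lines, at the same passage, were plated on IgG or on DLL4 (2.5 mg/mL in the coating solution, as labelled), and polyadenylated RNA was taken 24 hours later. Another line, targeted at NOTCH1 (NKO), supplied the other 4 libraries. It entered here through the expression filter, the shared estimate of spread and a closing comparison. TSPAN14 is represented by 1 targeted line, whether a clone or a pool is not given in the sources used here, and an effect of the target and any other property of that line cannot be told apart. Replicates are labelled as biological without mention of separate cultures, and the p-values therefore measure only how much these libraries varied.

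Notch receptors are cut by a membrane protease after they bind a ligand on a neighbouring cell or surface, and a further cut frees an intracellular part that enters the nucleus and joins the DNA-binding protein RBPJ. Direct targets include the transcriptional repressors of the HES and HEY families. In endothelium DLL4 and Notch are known for restraining tip cells during sprouting, for arterial identity and for slowing the cell cycle. TSPAN14 belongs to the TspanC8 tetraspanins, which escort ADAM10, the protease that cuts ligand-bound Notch receptors outside the membrane.

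The DNA just before the start sites of HES1, HEY2 and DEPP1 is shown first. They were chosen by the result, from the lists of Notch repressor targets and arterial genes used below. Among the genes of these lists whose DLL4 response differed between the lines, they had the smallest p in limma's test of that difference. GJA4 was chosen by the same rule and had no promoter entry. RBPJ is known to bind sites with the core TGGGAA, and the capitals mark that core or its reverse complement in 250 bases of RefSeq sequence (GRCh38.p14), read on the gene's own strand up to the start.
HES1: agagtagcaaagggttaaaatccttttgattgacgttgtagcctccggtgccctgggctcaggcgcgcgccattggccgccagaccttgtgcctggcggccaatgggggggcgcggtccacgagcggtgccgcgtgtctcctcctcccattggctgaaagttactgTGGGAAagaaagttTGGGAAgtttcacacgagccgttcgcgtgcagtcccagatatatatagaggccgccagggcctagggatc
HEY2: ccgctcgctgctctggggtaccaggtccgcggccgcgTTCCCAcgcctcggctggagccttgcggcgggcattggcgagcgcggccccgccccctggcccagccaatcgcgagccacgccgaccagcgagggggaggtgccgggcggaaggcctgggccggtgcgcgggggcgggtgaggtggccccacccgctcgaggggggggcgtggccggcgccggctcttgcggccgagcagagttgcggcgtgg
DEPP1: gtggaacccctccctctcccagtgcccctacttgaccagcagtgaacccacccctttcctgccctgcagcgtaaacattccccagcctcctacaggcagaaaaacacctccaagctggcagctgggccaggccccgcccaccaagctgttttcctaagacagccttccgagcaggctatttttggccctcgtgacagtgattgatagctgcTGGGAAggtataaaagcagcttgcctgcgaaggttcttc
The HES1 window is chr3:194135898-194136147 on the plus strand and holds 2 cores in the gene's direction, which begin 84 and 70 bases before the start. The HEY2 window is chr6:125749382-125749631 on the plus strand and holds 1 core, on the opposite strand, 213 bases before the start; the HEY2 gene of GENCODE 29 begins further upstream. The DEPP1 window is chr10:44978810-44979059 on the minus strand and holds 1 core in the gene's direction, 39 bases before the start. The core stood on either strand in 24.3% of the 27305 promoters of the table (250 bases before to 50 after the start) and in 5 of the 9 Notch repressor genes with an entry (55.6%). Those 9 are on the list as known targets. Of the 70 genes called below 48 had an entry, and 11 of the 48 held the core (22.9%), against 21.8% of the 9642 tested genes with an entry. With so many called genes lacking an entry, nothing is read from that share. A core in a window is a match of letters and no record of binding.

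The libraries of a group resembled each other more than those of other groups. Pearson's r over the tested genes was 0.987 to 0.992 within a group, 0.976 to 0.984 between coatings of 1 line and 0.937 to 0.957 between lines. TSPAN14 itself (chromosome 10, 80454166 to 80533123, plus strand, GRCh38) was transcribed in every library, at 189 and 218 TPM in NT cells on IgG and 186 and 172 on DLL4. The TKO values were 127 and 148 TPM on IgG and 113 and 109 on DLL4, below every NT library, and its difference of response was -0.11 ± 0.14 (SE; limma adjusted p = 0.76). All 24 endothelial markers were tested, with a summed level of 4545 to 5049.7 TPM in every group, and PECAM1 (171 to 451 TPM) and CDH5 (242 to 350 TPM) were high in all 8 libraries. PTPRC, EPCAM, CDH1, CD3E and DES, which mark leukocytes, epithelium, T cells and muscle, were below 1 TPM in each library. The 13 fibroblast markers summed to 7.15 to 12.7 TPM in NT cells and 240.2 to 417 TPM in TKO cells, nearly all of it POSTN (0.085 to 0.477 TPM in NT, 229 to 407 in TKO), while COL1A2 was also higher in every TKO library (2.18 to 2.88 TPM against 0.0269 to 0.225 in NT) and COL3A1 and LUM reached at most 0.0444 and 0.0219 TPM. The 15 smooth muscle and pericyte markers summed to 252 to 347 TPM in NT and 127 to 195 TPM in TKO cells, with RGS5 at 136 to 221 against 2.55 to 3.18 TPM and ACTA2 at 12.8 to 22.0 against 19.6 to 29.9 TPM, where the lines overlapped. The 18 leukocyte markers summed to 264 to 287 against 134 to 149.9 TPM and the 14 epithelial markers to 727 to 867 against 930.04 to 1314 TPM. In each group 14 or 15 of the leukocyte and 10 of the epithelial markers were under 1 TPM in both libraries. The few other members of these lists, not named here, carried the sums. Only 5 smooth muscle and pericyte, 5 fibroblast, 4 leukocyte and 4 epithelial markers passed the expression filter. None of these was called in the difference of responses, and their part in the results was not tested. In bulk RNA, fewer cells of a kind and less RNA per cell cannot be told apart.

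DLL4 changed 70 of the 13299 genes differently in the 2 lines (0.526%, limma adjusted p under 0.05). The difference was negative for 44 genes (0.331%) and positive for 26 (0.196%). Most of the negative ones were genes that DLL4 raised in control cells: 39 of the 44 rose and 1 fell there, while 14 rose and 7 fell in TKO cells. Most of the positive ones were genes that DLL4 lowered in control cells: 19 of the 26 fell and 2 rose there, while 11 rose and 3 fell in TKO cells. The difference subtracts the NT response, so calling genes by it favours such splits in the same NT libraries. The splits describe the called genes and are no separate result. For comparison DLL4 changed 2130 genes in NT cells (16%, with 7.68% up and 8.34% down) and 866 in TKO cells (6.51%, with 4.11% up and 2.41% down). The response passed the test in NT cells only for 35 of the 70 genes, in TKO cells only for 9, in both lines in 1 direction for 20 and in opposite directions for 6. Passing in 1 line only is not what made a gene count here, since the difference itself was tested. At an unadjusted p under 0.05, 2062 genes differed (15.5%).

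**Figure D1:**
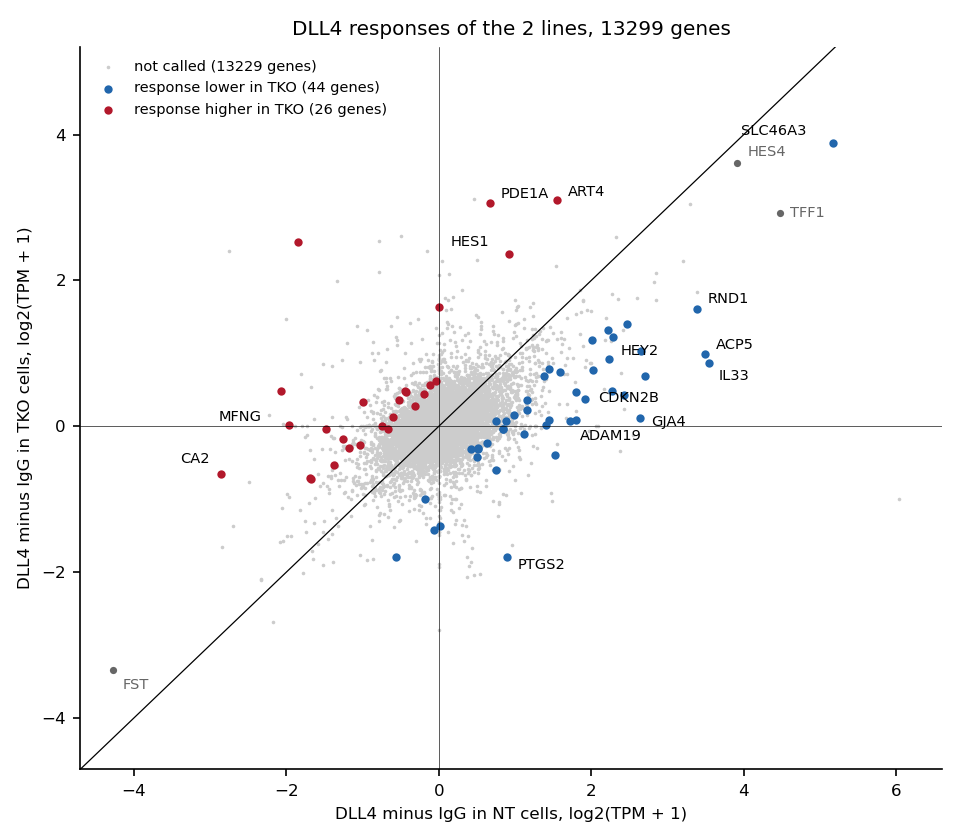
DLL4 response in NT cells (horizontal axis) against that in TKO cells (vertical axis), both as log2(TPM + 1) on DLL4 minus IgG, for 13299 genes. Grey points are genes with no called difference, blue the 44 genes with a lower and red the 26 with a higher response in TKO cells, and the diagonal marks equal responses. IL33, GJA4 and ACP5 lie far below it at the right and MFNG above it at the left, while HES4 and FST, both with large responses, lie nearer to it in grey.

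The count leaned on single libraries. Leaving out 1 NT library at a time gave 28 (IgG 2), 13 (IgG 3), 14 (DLL4 2) and 16 calls (DLL4 3). Leaving out 1 TKO library at a time gave 76 (IgG 2, with 48 of the 70 among them), 24 (IgG 3), 17 (DLL4 2) and 8 calls (DLL4 3). All 70 genes kept an unadjusted p under 0.05 in each of these 8 fits, and 6 kept the call in all of them: IL33, ACP5, ARHGEF17, CDKN2B, RGCC and MFNG. Because the 70 were chosen with these same libraries, keeping an unadjusted p under 0.05 was favoured by the choice. The typical 95% interval of a difference, not adjusted for the number of genes, reached 0.456 (median over genes) to either side. Smaller differences were mostly not detectable with 2 libraries a group. A call asked for a much smaller p than that interval, so larger differences could be missed too. TFF1 at -1.54 and ANGPTL4 at -1.08, for example, were not called.

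A gene can differ in its response while it starts at the same level, or start at another level and respond alike. Each of the 70 genes was therefore placed by whether the TKO minus NT difference in level was called on IgG, where the response starts, and on DLL4, where it ends. Such level differences were common, with 3666 genes called on IgG (27.6%, with 15.2% higher and 12.4% lower in TKO cells) and 3543 on DLL4 (26.6%, with 16.1% higher and 10.5% lower). Of the 70 genes 25 were apart on DLL4 only, 7 on IgG only, 25 on both coatings in 1 direction and 13 on both in opposite directions. None was called on neither coating. The IgG libraries enter both the starting level and the response, so an error in them moves both, and the classes describe the calls without testing them again.

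**Figure D2:**
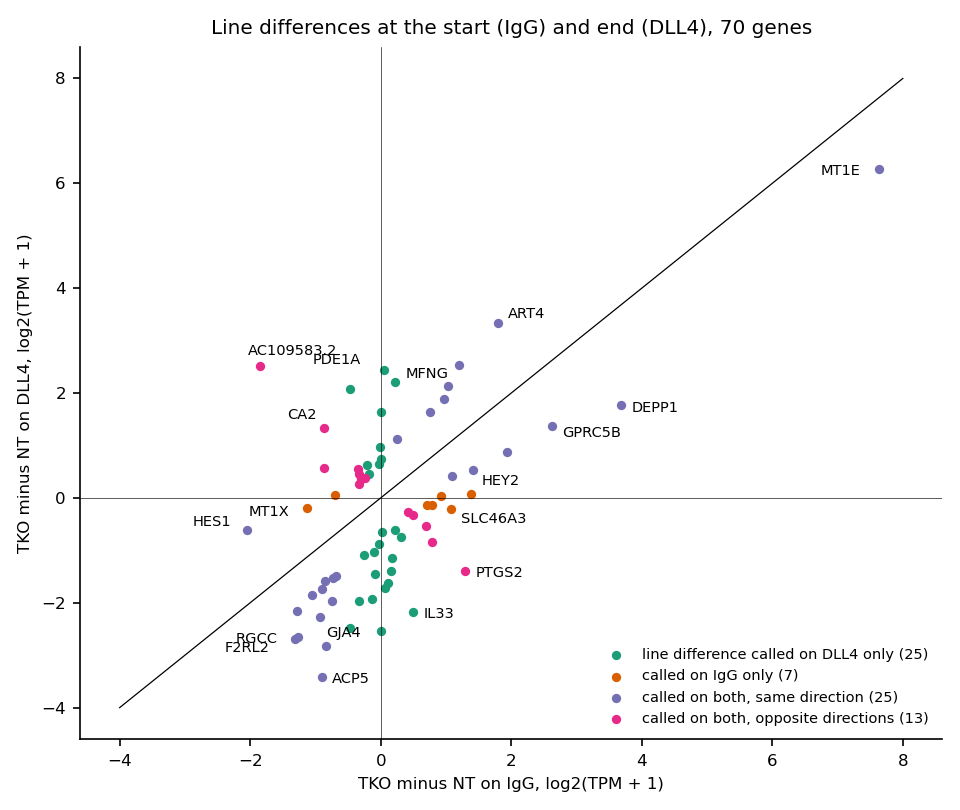
TKO minus NT difference in level on IgG (horizontal axis) and on DLL4 (vertical axis), log2(TPM + 1), for the 70 genes with a called difference of response. Colours give the coatings on which the level difference was called. Vertical distance from the diagonal is the difference of response: 25 genes cluster near 0 on the IgG axis, 7 near 0 on the DLL4 axis, and MT1E, DEPP1 and ART4 lie far from 0 on both.

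Among the genes apart on DLL4 only, the cytokine gene IL33, the arterial connexin gene GJA4 and the cell cycle inhibitor gene CDKN2B gained less in TKO cells, and MFNG was lowered by DLL4 in NT cells only. In this class 16 differences were negative and 9 positive. IL33 (chromosome 9, 6215786 to 6257983, plus strand, GRCh38), whose product is a nuclear cytokine, was at 0.304 and 0.333 TPM in NT cells on IgG and 14.5 and 14.1 on DLL4, and in TKO cells at 1.25 and 0.543 and 2.58 and 2.24. All 4 IgG libraries were at 1.25 TPM or less, and on DLL4 both NT libraries lay above both TKO libraries by a wide gap. The response was 3.54 ± 0.21 in NT and 0.87 ± 0.21 in TKO cells, a difference of -2.67 ± 0.29 (adjusted p = 0.0075), and the level difference on IgG was 0.50 ± 0.21 (95% interval 0.04 to 0.96).

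GJA4 (chromosome 1, 34792998 to 34795747, plus strand, GRCh38), which encodes the gap junction protein connexin 37, was listed at 0 in all 4 IgG libraries. On DLL4 it was at 6.42 and 4.27 TPM in NT and 0.0608 and 0.106 TPM in TKO cells. No fold is given against libraries at 0. The difference on the log scale was -2.53 ± 0.31 (adjusted p = 0.0075), a call that ended without TKO library DLL4 3 (adjusted p = 0.0517) and with a pseudocount of 0.1 (adjusted p = 0.111). SEMA3G, an arterial semaphorin, went from 0.138 and 0.111 to 4.10 and 4.81 TPM in NT cells and from 0.0127 and 0.0373 to 0.364 and 0.511 in TKO cells. Its NT libraries on DLL4 were far above the other 6 (-1.79 ± 0.28, adjusted p = 0.023). GJA4 and SEMA3G each reached 1 TPM in the NT libraries on DLL4 only. They passed the expression filter through that group, which favoured a negative difference.

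CDKN2B (chromosome 9, 22002903 to 22009363, minus strand, GRCh38) encodes p15, an inhibitor of the cyclin D kinases. It was at 10.03 and 11.8 TPM in NT cells on IgG and 45.4 and 42.7 on DLL4, and at 11.9 and 12.7 and 17.1 and 15.3 in TKO cells. On IgG the NT values lay just below the TKO values, and on DLL4 both NT libraries lay far above. Its response was 1.92 ± 0.12 in NT and 0.37 ± 0.12 in TKO cells, a difference of -1.55 ± 0.17 (adjusted p = 0.0075). LMO2, a LIM-domain cofactor of endothelial and blood cell transcription, rose from 21.3 and 20.7 to 80.5 and 71.6 TPM in NT cells and was at 23.5 and 24.4 and 33.1 and 34.1 TPM in TKO cells (-1.33 ± 0.18, adjusted p = 0.011). ADAM19, a membrane metalloprotease gene, rose from 12.4 and 14.99 to 46.8 and 47.2 TPM in NT cells and was at 9.50 and 11.9 and 11.5 and 10.9 TPM in TKO cells (-1.65 ± 0.20, adjusted p = 0.0075). For both genes the NT libraries on DLL4 were the highest of the 8.

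RND1, whose product loosens cell contacts, kept part of its response: 0.807 and 1.04 to 16.2 and 22.7 TPM in NT cells and 1.17 and 0.864 to 5.50 and 4.77 TPM in TKO cells (-1.79 ± 0.29). F2R, which encodes the thrombin receptor PAR1, behaved likewise at higher levels, from 123 and 119 to 519 and 468 TPM in NT and from 92.4 and 110.1 to 242 and 219 TPM in TKO cells (-0.83 ± 0.13). Both rose by the test in both lines. STARD4, a sterol carrier protein gene, did not pass in TKO cells, at 17.2 and 22.5 TPM on IgG and 21.7 and 20.3 on DLL4 against 20.7 and 21.4 and 60.9 and 56.9 in NT cells (-1.35 ± 0.22). BHLHE40, a transcriptional repressor chosen for mention after its values were seen, rose in NT cells (0.50 ± 0.09) and fell in TKO cells (-0.43 ± 0.09). Its levels were 56.1 and 55.5 TPM on IgG and 81.6 and 77.03 on DLL4 in NT and 49.2 and 54.3 and 38.3 and 38.1 in TKO cells. AC009093.8 is a pseudogene entry whose reads may be shared with other genes (-2.02 ± 0.26). The other negative genes of the class were the pseudogene entry AL356234.1 (-1.72), ENC1 (-1.06), ENDOD1 (-0.84), PDLIM3 (-0.67) and 1 entry whose symbol had been turned into a date. AL356234.1 passed the expression filter through the NT libraries on DLL4 only, which favoured a negative difference.

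MFNG (chromosome 22, 37469063 to 37486401, minus strand, GRCh38) encodes manic fringe, a glycosyltransferase that adds sugars to Notch receptors and so changes their response to ligands. In NT cells it went from 113 and 123 TPM on IgG to 31.5 and 27.6 on DLL4. The TKO values were 144 and 133 TPM on IgG and 149 and 132 on DLL4. The 2 NT libraries on DLL4 were the lowest of the 8, and the TKO libraries of the 2 coatings overlapped. The response was -1.96 ± 0.09 in NT and 0.02 ± 0.09 in TKO cells, and the difference of 1.99 ± 0.13 had an adjusted p of 0.0002. On IgG the lines differed by 0.22 ± 0.09 (95% interval 0.02 to 0.43).

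PDE1A, a phosphodiesterase that breaks down cyclic nucleotides, moved the other way round. It was at 0.0274 and 0.136 TPM on IgG and 0.485 and 1.01 on DLL4 in NT cells, and at 0.0831 and 0.149 and 10.8 and 6.42 in TKO cells. Its TKO libraries on DLL4 were the highest of the 8 by a wide gap (2.39 ± 0.35, adjusted p = 0.018). ADM, which encodes the vasodilator peptide adrenomedullin, fell in both lines, from 57.02 and 58.3 to 22.5 and 20.8 TPM in NT and from 47.6 and 51.9 to 34.3 and 33.6 TPM in TKO cells (0.84 ± 0.15). TBC1D2, a regulator of Rab GTPases, fell from 44.4 and 49.7 to 13.7 and 13.9 TPM in NT and from 49.7 and 43.8 to 30.7 and 25.7 TPM in TKO cells (0.98 ± 0.15). Both genes fell less in TKO cells. The other positive genes of the class were the pseudogene entries SUGT1P4 (2.55) and AC079987.1 (1.64), with IMP3 (0.73), AKR1B1 (0.68) and CNRIP1 (0.64). AC079987.1 passed the expression filter through the TKO libraries on DLL4 only, which favoured a positive difference. IMP3 fell in NT cells only by the test, and AKR1B1 and CNRIP1 rose in TKO cells only.

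The 7 genes apart on IgG only started at different levels and were not called apart on DLL4, where their line differences were -0.20 to 0.08. HEY2 (chromosome 6, 125747664 to 125761269, plus strand, GRCh38), a repressor of the HEY family tied to arterial fate, led them. On IgG it was at 11.1 and 11.5 TPM in NT and 32.99 and 29.1 TPM in TKO cells. On DLL4 it was at 58.1 and 54.8 TPM in NT and 63.3 and 56.4 TPM in TKO cells. The lines did not overlap on IgG and did on DLL4, where they differed by 0.08 ± 0.11 (95% interval -0.16 to 0.32). The response was 2.23 ± 0.11 in NT and 0.93 ± 0.11 in TKO cells, which started 1.38 ± 0.11 higher, and the difference of response was -1.30 ± 0.15 (adjusted p = 0.0075). That call ended without TKO library DLL4 3 (adjusted p = 0.0531).

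SLC46A3, a lysosomal transporter gene named here after its values were seen, was at 0.845 and 0.846 TPM in NT and 2.92 and 2.86 TPM in TKO cells on IgG. On DLL4 it was at 68.7 and 61.9 TPM in NT and 61.1 and 52.2 TPM in TKO cells, so its DLL4 levels nearly met while its IgG levels did not overlap (-1.28 ± 0.17, adjusted p = 0.012). HTRA3, a secreted serine protease gene, went from 13.8 and 13.3 to 65.7 and 67.5 TPM in NT and from 26.9 and 26.6 to 67.8 and 68.1 TPM in TKO cells (-0.90 ± 0.16). ANKRD1, an ankyrin repeat protein of the nucleus and of contractile fibres, went from 84.5 and 82.4 to 244 and 263 TPM in NT and from 140.2 and 134 to 229 and 229 TPM in TKO cells (-0.85 ± 0.12). PLOD2, which encodes a collagen lysyl hydroxylase, had the same pattern, with 44.5 and 37.8 against 76.7 and 66.9 TPM on IgG and 94.3 and 90.3 against 89.8 and 78.3 on DLL4 (-0.93 ± 0.15). Each of these 4 genes started higher in TKO cells.

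The other 2 genes of the class were the positive ones, and they started lower in TKO cells. MT1X, a metallothionein that binds zinc and copper, was on IgG at 61.7 and 59.5 TPM in NT and 28.1 and 26.04 in TKO cells, and on DLL4 at 16.8 and 19.9 and 14.2 and 17.9 TPM (0.95 ± 0.17, adjusted p = 0.04). MTFP1, a mitochondrial inner membrane protein gene, was at 77.6 and 89.4 and 50.5 and 51.6 TPM on IgG and at 49.6 and 48.99 and 52.7 and 49.3 on DLL4 (0.74 ± 0.13). The call of MT1X ended in each of the 8 fits with a library left out, and metallothionein genes share sequence, which makes their assignment uncertain.

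**Figure D3:**
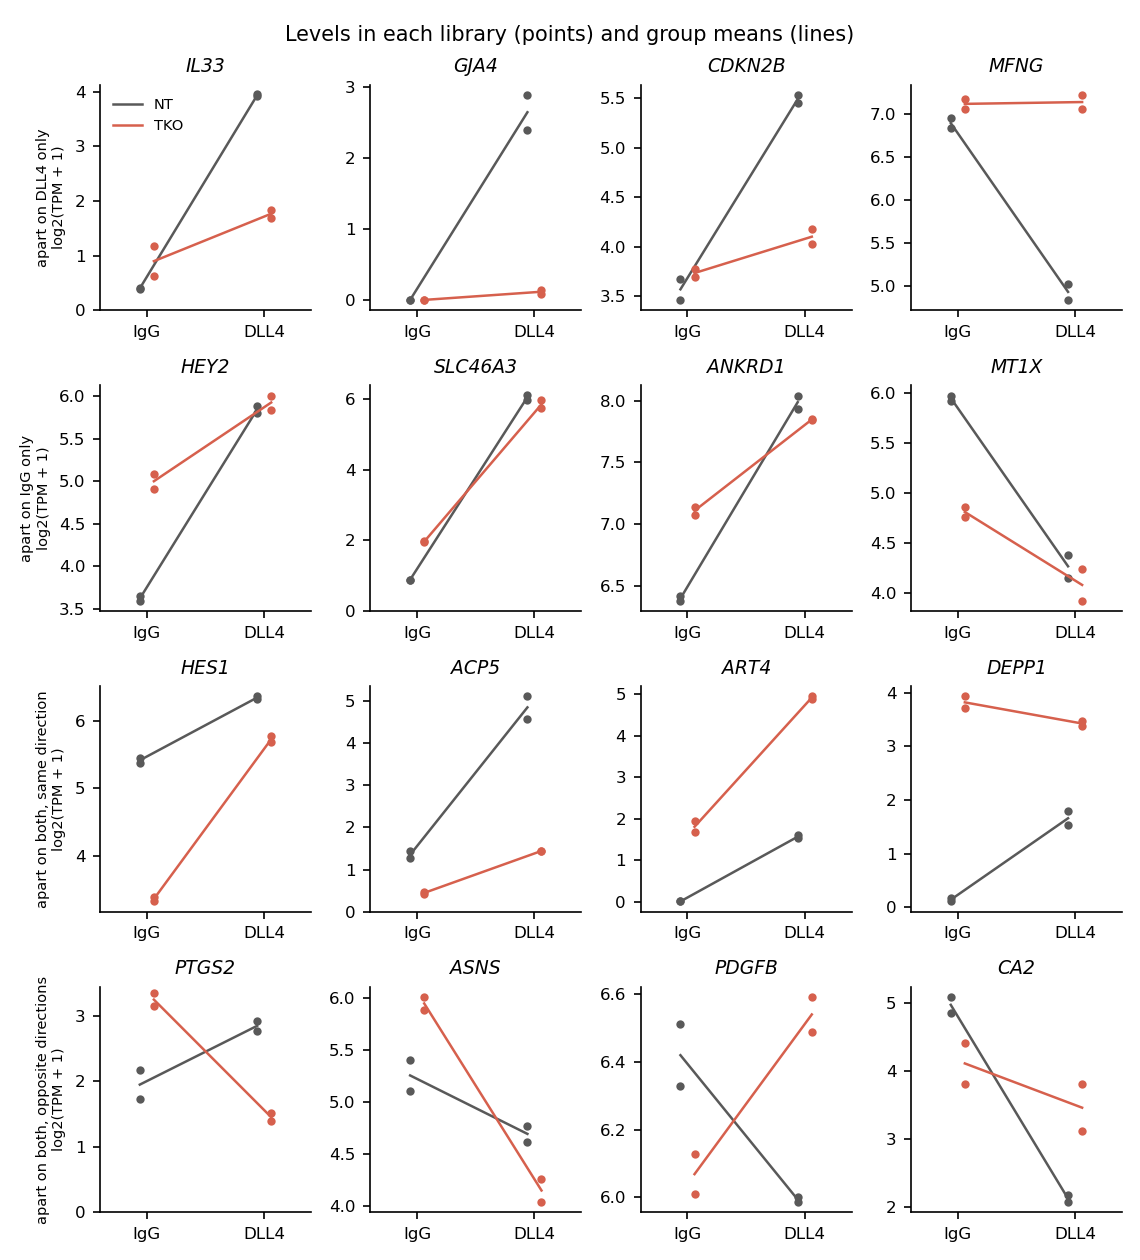
log2(TPM + 1) in each library (points) and group means (ends of the lines) on IgG and DLL4 for 4 genes of each class, NT in grey and TKO in red. Axes differ between panels and most do not start at 0. In the 1st row the lines part on DLL4, in the 2nd they meet there, in the 3rd they stay apart, and in the 4th they cross.

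Of the 25 genes apart on both coatings in 1 direction, 18 had a negative and 7 a positive difference of response. HES1 (chromosome 3, 194136145 to 194138732, plus strand, GRCh38), whose window above holds 2 marked cores, was the only one of the 8 tested Notch repressor targets with a called positive difference. It was at 40.7 and 42.6 TPM in NT cells on IgG and 81.2 and 78.9 on DLL4, and at 9.58 and 9.07 and 50.3 and 53.6 in TKO cells. The TKO libraries lay below the NT libraries on both coatings, and the gap narrowed from -2.05 ± 0.12 on IgG to -0.62 ± 0.12 on DLL4. The response was 2.36 ± 0.12 in TKO and 0.93 ± 0.12 in NT cells, a difference of 1.43 ± 0.17 (adjusted p = 0.0075). HES1 thus rose further on the log scale from a lower start, the mirror of HEY2. Its call ended in 2 of the 8 fits with a library left out.

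ACP5, which encodes the tartrate-resistant acid phosphatase, was lower in TKO cells on IgG and far lower on DLL4. It went from 1.70 and 1.41 to 33.8 and 22.8 TPM in NT cells and from 0.386 and 0.338 to 1.72 and 1.71 TPM in TKO cells. The TKO libraries on DLL4 reached the level of the NT libraries on IgG (-2.50 ± 0.28, adjusted p = 0.0075). F2RL2, a protease-activated receptor gene, went from 4.92 and 5.37 to 16.3 and 14.2 TPM in NT cells and stayed between 1.33 and 1.71 TPM in the 4 TKO libraries (-1.38 ± 0.24). CCDC102B, a coiled-coil protein gene, went from 2.71 and 1.88 to 15.7 and 17.5 TPM in NT and from 1.02 and 0.671 to 1.33 and 1.64 TPM in TKO cells (-1.99 ± 0.32). The calls of F2RL2 and CCDC102B ended in each of the 8 fits with a library left out.

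DEPP1, a gene of stress and FOXO signalling that is also on the arterial list, began much higher in TKO cells. The NT libraries held 0.0771 and 0.125 TPM on IgG and 2.46 and 1.88 on DLL4, against 12.03 and 14.3 and 10.1 and 9.35 in TKO cells. It rose in NT cells (1.52 ± 0.17), while the TKO value of -0.39 ± 0.17 did not pass the test, and the difference was -1.91 ± 0.24 (adjusted p = 0.0089). MT1E, a metallothionein, was at 0 to 0.0888 TPM in the 4 NT libraries and far higher in TKO cells: 207 and 206 TPM on IgG and 74.1 and 78.6 on DLL4 (-1.36 ± 0.18). That call ended with a pseudocount of 0.1 (adjusted p = 0.404). At such NT levels no fall of MT1E could be measured in NT cells, so its difference reflects the fall in TKO cells.

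RGCC, which encodes a regulator of the cell cycle, changed in TKO cells only by the test. It was at 111 and 118 TPM in NT cells on IgG and 116 and 116 on DLL4, all 4 close together, and at 47.4 and 46.5 and 16.9 and 18.2 in TKO cells (-1.39 ± 0.17, adjusted p = 0.0075). NEDD9, a scaffold protein of focal adhesions, was named after its values were seen because the responses passed in opposite directions. It rose from 18.2 and 19.99 to 33.2 and 32.04 TPM in NT cells and fell from 9.45 and 9.54 to 6.25 and 5.63 TPM in TKO cells (-1.34 ± 0.16, adjusted p = 0.0075). PLAU, which encodes the protease urokinase, rose in NT cells from 229.8 and 214 to 347 and 290.4 TPM and was at 118 and 118 and 98.3 and 91.5 TPM in TKO cells (-0.83 ± 0.14). SNAI1, a transcription factor of endothelial-to-mesenchymal transition, rose in NT cells from 26.1 and 28.1 to 48.5 and 49.99 TPM and was at 10.5 and 10.7 and 9.60 and 10.9 TPM in TKO cells (-0.88 ± 0.15). In RGCC, NEDD9, PLAU and SNAI1 every TKO library lay below every NT library. The other negative genes ran from -1.26 (GPRC5B) to -0.67 (PKIG), among them FZD4, a receptor of Wnt ligands and norrin (-0.88), and CTSC, the cathepsin C gene (-0.80), which both rose in NT cells only by the test.

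The positive genes of this class other than HES1 all had higher levels in TKO cells. ART4, a blood group ectoenzyme gene, was at 0.0101 and 0.0101 TPM in NT cells on IgG and 1.91 and 2.03 on DLL4, and at 2.20 and 2.83 and 28.5 and 29.8 in TKO cells (1.55 ± 0.24, adjusted p = 0.021). With a pseudocount of 0.1 that difference was -0.74 (adjusted p = 0.496). PDE2A, a phosphodiesterase stimulated by cGMP, fell from 29.5 and 30.1 to 12.1 and 11.7 TPM in NT cells and was at 58.97 and 65.8 and 54.6 and 56.1 TPM in TKO cells (1.09 ± 0.15). GIMAP6, an immunity-associated GTPase gene, fell from 9.87 and 8.96 to 5.22 and 3.36 TPM in NT cells and was at 20.8 and 25.4 and 27.9 and 30.3 TPM in TKO cells (1.32 ± 0.23). LY6K (0.88 ± 0.15) fell in NT cells only by the test. AGFG2 (0.87 ± 0.11) and DIPK1B (0.93 ± 0.15) fell in NT cells and rose in TKO cells.

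In the 13 genes apart on both coatings in opposite directions, the order of the lines turned over between IgG and DLL4. ARHGEF17, a guanine nucleotide exchange factor gene, was at 8.996 and 10.1 TPM in NT cells on IgG and 72.7 and 58.8 on DLL4. The TKO values were 16.4 and 17.9 TPM on IgG and 35.2 and 36.6 on DLL4. TKO libraries were the higher ones on IgG and the lower ones on DLL4 (-1.63 ± 0.17, adjusted p = 0.0075). PTGS2, which encodes the prostaglandin synthase COX-2, was at 2.31 and 3.51 TPM in NT cells on IgG and 6.59 and 5.80 on DLL4, and at 7.85 and 9.14 and 1.86 and 1.62 in TKO cells. It fell in TKO cells (-1.79 ± 0.33), while its NT value of 0.90 ± 0.33 did not pass the test, and the difference was -2.69 ± 0.46 (adjusted p = 0.029). The PTGS2 call ended in each of the 8 fits with a library left out (highest adjusted p 0.131).

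ASNS, the asparagine synthetase gene, and PSAT1, an enzyme gene of serine synthesis, are both ATF4 targets and turned over too. ASNS fell from 41.4 and 33.4 to 26.3 and 23.6 TPM in NT cells and from 58.1 and 63.5 to 18.2 and 15.4 TPM in TKO cells (-1.24 ± 0.17). PSAT1 was at 82.4 and 76.4 and 74.6 and 65.7 TPM in NT cells and fell from 111 and 114 to 60.5 and 51.3 TPM in TKO cells (-0.82 ± 0.14). RGS3, a regulator of G protein signalling, rose from 78.8 and 78.3 to 205 and 207 TPM in NT and from 104 and 107 to 165 and 178 TPM in TKO cells (-0.69 ± 0.11).

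Of the 8 positive genes of this class, CA2 and KRT80 had the largest values outside the pseudogene entry AC109583.2 (4.37 ± 0.80), whose reads may be shared with other genes. CA2, which encodes carbonic anhydrase II, was at 33.1 and 28.1 TPM in NT cells on IgG and 3.21 and 3.52 on DLL4. The TKO values were 20.5 and 12.996 TPM on IgG and 13.01 and 7.69 on DLL4, with the 2 coatings overlapping (2.20 ± 0.35, adjusted p = 0.023). KRT80, a keratin gene, fell from 9.85 and 11.2 to 3.37 and 2.87 TPM in NT cells and stayed between 4.55 and 5.81 TPM in TKO cells (1.45 ± 0.24). PDGFB, the growth factor that endothelial tip cells release to attract pericytes, fell in NT and rose in TKO cells. On IgG and DLL4 it stood at 79.3 and 90.3 and at 63.02 and 62.3 TPM in NT cells, and at 63.4 and 68.9 and 88.8 and 95.5 TPM in TKO cells, without overlap between the lines on either coating (0.90 ± 0.13, adjusted p = 0.016). CDC20, an activator of the anaphase-promoting complex, fell from 272 and 283 to 184 and 166 TPM in NT cells and was between 220.2 and 250 TPM in the 4 TKO libraries (0.62 ± 0.12). C19orf48 (0.78), EBPL (0.66) and SPR, the sepiapterin reductase gene (0.59), were the other positive genes of the class.

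A difference of log responses compares ratios. The amounts gained or lost in TPM ask the same question on a linear scale. Of the 70 genes 68 kept their sign there and 66 kept it by more than 2 standard errors. The sign turned for GPRC5B, a G protein-coupled receptor gene, and SLC1A4, a neutral amino acid transporter gene, which both started higher in TKO cells. GPRC5B gained 7.21 TPM in NT and 10.1 TPM in TKO cells, a linear difference of 2.92 ± 1.16 (SE). SLC1A4 gained 15.2 and 20.2 TPM, a linear difference of 4.92 ± 0.236. HES1 and SLC46A3 kept their signs within 2 standard errors.

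For HES1 the lines gained nearly the same amount, 38.4 TPM in NT and 42.6 TPM in TKO cells (linear difference 4.24 ± 2.22). HEY2 gained 45.2 TPM in NT and 28.8 TPM in TKO cells, and IL33 14.01 and 1.51 TPM, so both gained less on either scale. MFNG lost TPM in NT cells (-88.5) and was level in TKO cells (2.19). Among genes with no called log difference, EFNB2 gained 10.8 and 10.7 TPM and HES4 gained 109.8 and 40.7 TPM. Which of these pairs look alike depends on the scale, and the call rule used the log scale alone.

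**Figure D4:**
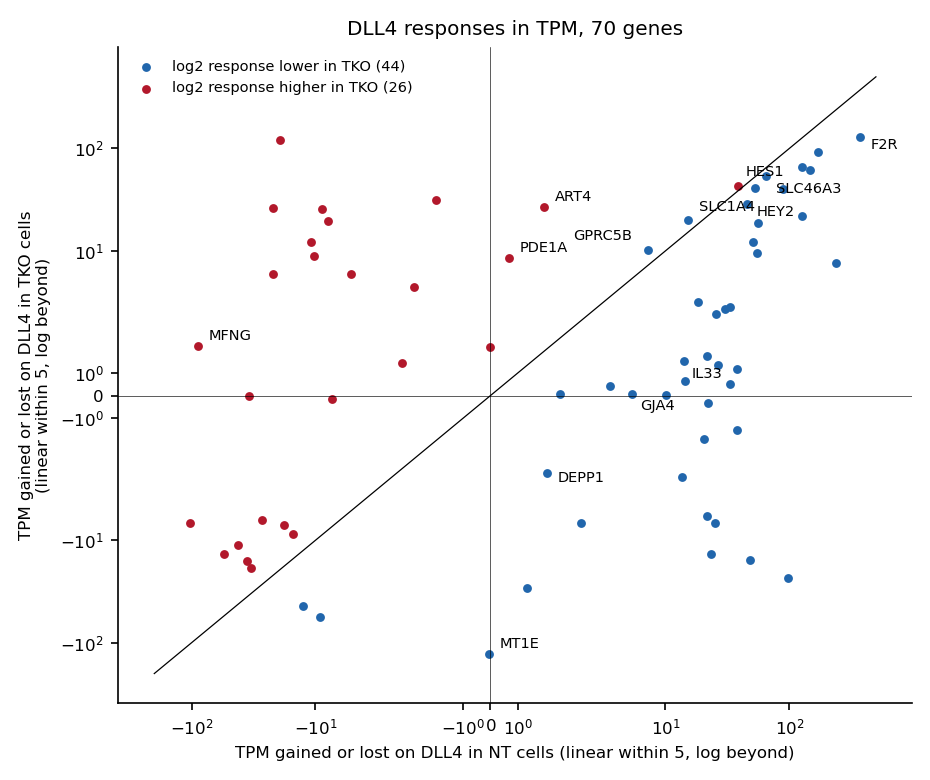
TPM gained or lost on DLL4 in NT cells (horizontal axis) and in TKO cells (vertical axis), from group means, for the 70 genes with a called difference on the log scale. Both axes are linear within 5 TPM and logarithmic beyond, blue points have a lower and red points a higher log response in TKO cells, and the line marks equal gains. HES1 and SLC46A3 lie close to the line, and the blue points GPRC5B and SLC1A4 lie above it.

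The reverse case, a gene that starts elsewhere and shows no called difference of response, was far more common. Of the 3666 genes called apart on IgG, 45 were called in the difference (1.23%), against 25 of the 9633 others (0.26%), a comparison in which both calls share the IgG libraries. For 2860 of the 3621 genes called on IgG but not in the difference, the 95% interval of the difference lay within 1 on either side of 0. The response passed in neither line for 2543 of the 3666. Of 511 genes whose response passed in both lines in 1 direction, 20 were called in the difference and 491 were not. Of those 491, 239 were apart on IgG, 126 of them higher and 113 lower in TKO cells, and 145 rose while 94 fell.

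The 12 of those 239 with the largest IgG differences are described here, and for 6 of them the 95% interval of the difference lay within 1 on either side of 0. ITGA8, an integrin chain gene, was at 14.5 and 14.3 TPM in NT and 0.315 and 0.335 in TKO cells on IgG, and at 26.4 and 23.2 and 1.003 and 0.901 TPM on DLL4. It rose in both lines from starts -3.54 ± 0.14 apart, with a difference of response of -0.18 ± 0.19 (95% interval -0.60 to 0.24). SH2D2A, an adaptor protein gene, fell from 50.7 and 58.3 to 9.30 and 10.7 TPM in NT and from 6.75 and 5.89 to 0.697 and 0.694 TPM in TKO cells, a difference of 0.22 ± 0.18 (95% interval -0.18 to 0.63). BCL2A1, an inhibitor of apoptosis, fell from 4.48 and 4.68 to 0.620 and 0.640 TPM in NT and from 46.1 and 34.8 to 9.98 and 8.46 TPM in TKO cells, a difference of -0.24 ± 0.24 (95% interval -0.77 to 0.30). ITGA8 and SH2D2A in TKO cells and BCL2A1 in NT cells had libraries below 1 TPM, where the added 1 shrinks log changes. The intervals of all 12 genes hold on the log2(TPM + 1) scale only, and like ratios of TPM were not shown.

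SLIT2, a guidance ligand of ROBO receptors, rose in NT cells from 0.215 and 0.167 to 1.59 and 1.24 TPM and in TKO cells from 7.88 and 9.91 to 29.9 and 27.8 TPM (0.58 ± 0.28, 95% interval -0.03 to 1.19, adjusted p = 0.34). ANGPTL4, an inhibitor of lipoprotein lipase, rose from 82.5 and 90.3 to 412 and 419.8 TPM in NT and from 8.26 and 7.62 to 18.9 and 19.5 TPM in TKO cells. Its difference of -1.08 ± 0.21 (95% interval -1.54 to -0.62, adjusted p = 0.055) lay just outside the threshold. The other 7 were IGFBP5, SCG5, ADGRG6, C1QTNF5, TFF1, GGT5 and LPXN, with differences from -1.54 (TFF1) to 0.60 (GGT5). The 95% interval reached past 1 or -1 for IGFBP5 (-2.04 to 0.55), SCG5 (-1.18 to 1.00), C1QTNF5 (-1.34 to -0.07) and TFF1 (-2.49 to -0.60), as for SLIT2 and ANGPTL4, so a parallel response was not shown for these 6. The interval, which is not adjusted for the number of genes, left out 0 for ANGPTL4, TFF1, C1QTNF5 and GGT5 (0.31 to 0.89).

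The Notch pathway genes are taken by role. Of the 8 tested repressor targets, HES1 was called higher and HEY2 lower, where 0.196% and 0.331% of all genes were. The list's median was -0.107 against 0.011 over all genes. Medians of lists moved when 1 library was left out, and the range over those 8 fits is given with each (-0.191 to -0.024 here, the values without TKO libraries DLL4 2 and DLL4 3). HES4 rose from 6.14 and 7.56 to 123 and 110.03 TPM in NT cells and from 2.42 and 2.82 to 45.1 and 41.5 TPM in TKO cells. It was lower in TKO cells on both coatings, and its difference of -0.30 ± 0.27 (adjusted p = 0.64) did not pass. HEY1 (-0.60 ± 0.30), NRARP, an inhibitor in the Notch nuclear complex (0.70 ± 0.30), HES7 (0.77 ± 0.43), HES2 (-0.28 ± 0.17) and HES6 (0.07 ± 0.22) did not pass either, with adjusted p of 0.3 or more. HES5 and HEYL were below the expression filter. In NT cells 4 of the 8 rose and 1 fell, where 7.68% and 8.34% of all genes did. In TKO cells 5 rose and 0 fell, where 4.11% and 2.41% of all genes did.

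None of the 9 receptors and ligands was called (median -0.342, range -0.524 to -0.273, the first without TKO library IgG 2). The ligand gene DLL4 was at 5.09 and 5.41 TPM on IgG and 45.6 and 40.7 on DLL4 in NT cells, and at 13.2 and 16.4 and 59.1 and 62.6 in TKO cells (-0.85 ± 0.18, adjusted p = 0.077). JAG1, another ligand, was at 42.9 and 44.6 and 82.96 and 70.2 TPM in NT cells and at 30.1 and 37.2 and 27.5 and 24.9 in TKO cells (-1.13 ± 0.24, adjusted p = 0.072). The NT libraries on DLL4 were the highest of the 8 for JAG1. The receptor gene NOTCH1 was at 17.8 and 19.6 TPM on IgG and 31.5 and 24.7 on DLL4 in NT cells and at 17.02 and 22.2 and 23.8 and 21.6 in TKO cells, with a difference of -0.34 ± 0.23 (95% interval -0.85 to 0.16). NOTCH2 (-0.71 ± 0.34) and NOTCH4 (-0.33 ± 0.38) did not pass.

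Of 7 glycosyltransferases MFNG alone was called, and LFNG, its close relative, was at 0.74 ± 0.32 (adjusted p = 0.3). Of 14 proteases and TspanC8 tetraspanins none was called (median -0.036, range -0.169 to 0.044). ADAM10 was at 72.9 and 89.5 and 138 and 111 TPM in NT cells and 79.2 and 137 and 118 and 108 TPM in TKO cells, with overlapping lines and a wide interval (-1.17 to 0.18). None of the 12 genes of the nuclear complex was called (median -0.22, range -0.294 to -0.042). The nuclear complex median was -0.042 without TKO library IgG 3 and -0.08 without NT library DLL4 2.

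Among vascular lists the arterial one held the most calls. Of its 25 tested genes 4 were lower and 0 higher (HEY2, GJA4, DEPP1 and SEMA3G), where 0.331% of all genes were lower and 0.196% higher. GJA4 and SEMA3G passed the expression filter through the NT libraries on DLL4 only. The filter thus favoured their negative differences, and the count is a description only. The list's median response was 1.098 in NT and 0.178 in TKO cells, and 17 of the 25 differences were negative (median -0.326, range -0.423 to -0.253). In NT cells 15 rose and 4 fell, where 7.68% and 8.34% of all genes did. In TKO cells 7 rose and 2 fell, where 4.11% and 2.41% of all genes did. UNC5B, a netrin receptor gene, was at 1.85 and 2.21 and 6.80 and 5.72 TPM in NT cells and 1.14 and 1.19 and 1.45 and 1.49 TPM in TKO cells (-1.07 ± 0.24, adjusted p = 0.084). EFNB2, an arterial ephrin, went from 0.274 and 0.344 to 11.8 and 10.4 TPM in NT and from 1.92 and 1.59 to 14.5 and 10.4 TPM in TKO cells (-0.94 ± 0.27, adjusted p = 0.14), and the lines overlapped on DLL4 alone. SOX17, an arterial transcription factor, did not pass (-0.68 ± 0.18).

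None of 11 venous and lymphatic genes was called (median -0.075, range -0.178 to 0.048). Of 20 tip cell and VEGF genes PDGFB and ADM were higher and none lower, where 0.196% and 0.331% of all genes were. ANGPT2, a vessel-destabilising ligand, was at -0.71 ± 0.14 (adjusted p = 0.06), and CXCR4 was listed at 0 in all NT libraries and reached 2.35 and 4.14 TPM on IgG and 5.87 and 7.84 TPM on DLL4 in TKO cells. Of 24 genes of BMP, activin and TGF-beta signalling none was called (median 0.006, range -0.106 to 0.055). They include ID1 (0.74 ± 0.18), FST, whose product binds activin (0.93 ± 0.21), and its relative FSTL3 (-0.87 ± 0.17), with adjusted p of 0.057 to 0.098.

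The 38 DNA replication genes shared a sign without any single call. All 38 differences were positive (median 0.354, range 0.311 to 0.441 with 1 library left out), against 6869 of 13299 over all genes. All 38 were positive under the other scalings tried and in 6 of the 8 fits with a library left out, while 35 were without NT library DLL4 3 and 37 without TKO library IgG 2. DLL4 lowered 23 of the 38 in NT cells (median -0.571) and 2 in TKO cells (median -0.206). Over all genes it lowered 8.34% in NT and 2.41% in TKO cells. On IgG 9 of the 38 were higher and 3 lower in TKO cells, where 15.2% and 12.4% of all genes were. On DLL4 22 of the 38 were higher and 0 lower, where 16.1% and 10.5% of all genes were. MCM2, a helicase subunit, went from 35.3 and 40.4 to 18.8 and 17.3 TPM in NT cells and from 40.7 and 46.8 to 33.2 and 31.9 TPM in TKO cells (0.62 ± 0.14, adjusted p = 0.09). CHAF1A, a histone chaperone subunit, went from 52.5 and 54.04 to 30.6 and 26.8 TPM in NT cells and was at 42.7 and 34.7 and 38.1 and 36.6 TPM in TKO cells (0.83 ± 0.16, adjusted p = 0.057). The NT libraries on DLL4 were the lowest of the 8 for both, and the genes of the list share the same 8 libraries, so 38 equal signs are not 38 separate observations. Of 30 mitosis genes CDC20 was higher and none lower (median 0.101, range 0.038 to 0.246, with 26 positive). Over all genes 0.196% were called higher and 0.331% lower. Without NT library DLL4 3 the mitosis median was 0.041 with 17 positive, and without NT library IgG 2 it was 0.038 with 19 positive. It was 0.246 without NT library DLL4 2, 0.219 without NT library IgG 3, 0.164 without TKO library DLL4 3 and 0.154 without TKO library IgG 2. Of 13 cell cycle inhibitors and D cyclins CDKN2B was lower and none higher, and CDKN2D was at -0.73 ± 0.17 (adjusted p = 0.09). Their median of -0.159 became -0.023 without NT library DLL4 2, -0.035 without TKO library IgG 3 and -0.25 without NT library DLL4 3.

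**Figure D5:**
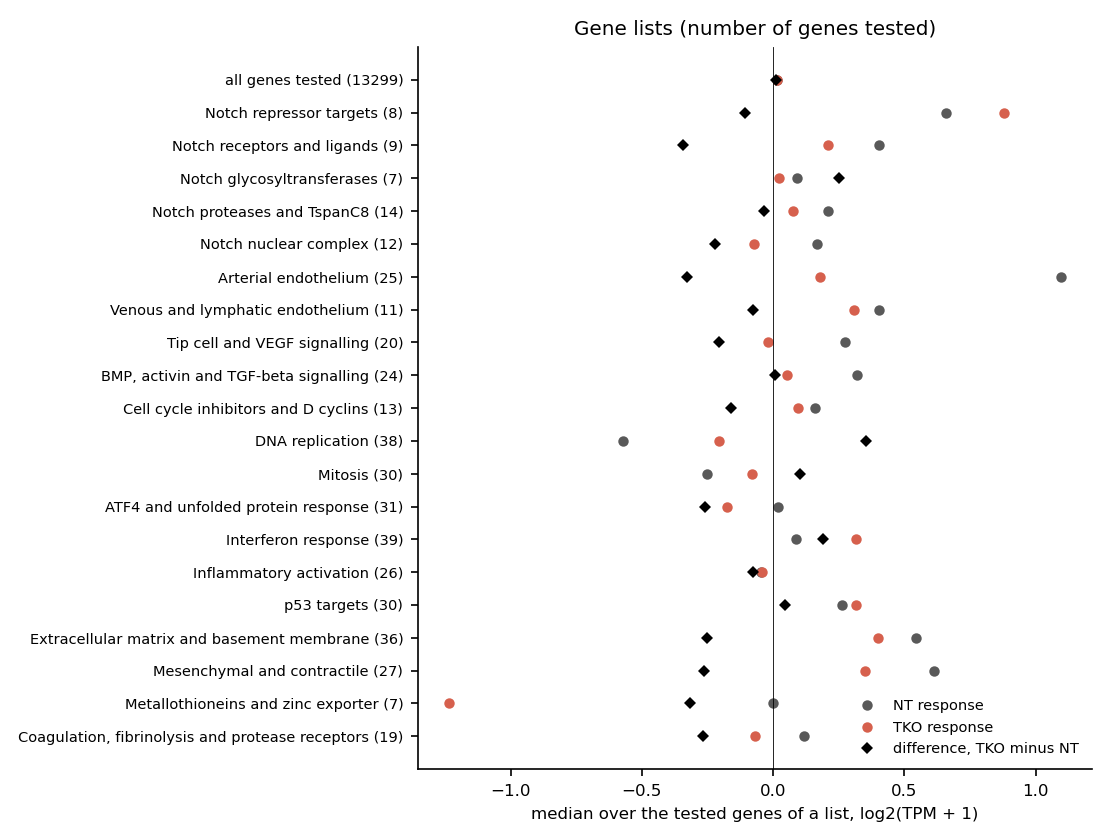
Median over the tested genes of each list of the DLL4 response in NT cells (grey), in TKO cells (red) and of the difference between them (black diamonds), log2(TPM + 1), with the number of genes tested in brackets. A median of differences need not equal the difference of medians. The arterial list lies at 1.098 in NT and 0.178 in TKO cells, and DNA replication at -0.571 and -0.206.

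The remaining lists held few calls, where 0.331% of all genes were called lower and 0.196% higher. Of 31 genes of the ATF4 and unfolded protein response, ASNS and PSAT1 were lower and none higher (median -0.261, range -0.328 to -0.181, with 27 negative). In TKO cells 12 of the 31 fell and none rose, where 2.41% of all genes fell and 4.11% rose. In NT cells 6 rose and 8 fell, where 7.68% and 8.34% of all genes did. HSPA5, a chaperone of the endoplasmic reticulum, was at -0.44 ± 0.10 (adjusted p = 0.09). Of 26 genes of inflammatory activation IL33 and PTGS2 were lower and none higher (median -0.077, range -0.164 to -0.023, the values without TKO library IgG 3 and NT library DLL4 2). Of 39 interferon genes none was called (median 0.189, range 0.129 to 0.243, with 28 positive), among them the immunoproteasome gene PSMB9 (1.05 ± 0.25, adjusted p = 0.092).

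Of 19 genes of coagulation, fibrinolysis and protease receptors 3 were lower and 0 higher: F2R, F2RL2 and PLAU. Over all genes 0.331% were called lower and 0.196% higher, which holds for the next lists too. Of the 19 differences 17 were negative (median -0.265, range -0.39 to -0.219). PLAUR, the urokinase receptor gene, was at -0.62 ± 0.14 (adjusted p = 0.077), and PLAT, which encodes tissue plasminogen activator, fell in both lines (-0.46 ± 0.10, adjusted p = 0.077). Of 27 mesenchymal and contractile genes ANKRD1 and SNAI1 were lower and none higher (median -0.264, range -0.353 to -0.2), with TPM1, an actin-binding tropomyosin, at -0.50 ± 0.09 (adjusted p = 0.052). Of 36 genes of the extracellular matrix none was called (median -0.251, range -0.332 to -0.109, the last without NT library DLL4 2). THBS1, which encodes the matrix protein thrombospondin, went from 119 and 127 to 699.9 and 603 TPM in NT cells and from 327 and 592 to 713 and 752 TPM in TKO cells (-1.66 ± 0.31, adjusted p = 0.052). COL5A1 was at -0.76 ± 0.15 (adjusted p = 0.063). Of 30 p53 targets none was called (median 0.046, range -0.004 to 0.106). Of 7 tested genes of the list of metallothioneins and the zinc exporter SLC30A1, MT1X was higher and MT1E lower, and MT1A (-1.93 ± 0.36) and MT1M (-1.24 ± 0.40) were listed at 0 in all NT libraries.

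The NOTCH1-targeted line gives another value for the same genes. Against the same NT libraries its difference of response was called for 118 genes (0.887%). Because both differences subtract the same NT response, the values are set side by side only. IL33 was -2.67 in TKO and -2.63 in NKO cells, GJA4 -2.53 and -2.61, and MFNG 1.99 and 1.66. HEY2 was -1.30 and -1.65, HES1 1.43 and 0.40, and RGCC -1.39 and -0.26. The arterial list's median was -0.326 in TKO and -0.886 in NKO cells, where 7 of its genes were called lower and 1 higher. DNA replication was at 0.354 and 0.467, with 3 genes called higher and 0 lower in NKO cells. The mesenchymal and contractile list was at -0.264 and -0.395, with 7 lower and 0 higher in NKO cells. The ATF4 list was at -0.261 in TKO but -0.024 in NKO cells, with none called there.

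The direct contrast of the TKO and NKO responses, which leaves the NT libraries out of the difference and was added after the data were seen, called 20 genes (0.15%). Of the 70 genes 6 were among them. On the log2(TPM + 1) scale PDE1A (3.11 ± 0.35, adjusted p = 0.01) and ART4 (2.31 ± 0.24, adjusted p = 0.0079) responded more positively in TKO than in NKO cells. ASNS (-1.62 ± 0.17, adjusted p = 0.0079), MT1E (-1.42 ± 0.18, adjusted p = 0.013), RGCC (-1.13 ± 0.17, adjusted p = 0.032) and PSAT1 (-1.03 ± 0.14, adjusted p = 0.02) responded more negatively. On DLL4 PDE1A was at 0.0123 and 0.0238 TPM in the NKO libraries against 10.8 and 6.42 TPM in the TKO libraries, which did not overlap. RGCC was at 29.3 and 39.8 TPM on IgG and 28.4 and 28.99 on DLL4 in NKO cells. ART4 was at 0.0777 and 0.0484 TPM on IgG and 1.02 and 0.684 on DLL4 in NKO cells, where the added 1 shrinks log changes. A larger ratio of TPM in TKO cells was therefore not shown for ART4. MT1E was listed at 0 in every NKO library, so no fall could be measured there. No result with another pseudocount is given for this contrast. For IL33 (-0.04 ± 0.29), GJA4 (0.08 ± 0.31) and HEY2 (0.35 ± 0.15) the direct contrast did not pass, which does not show that the targeted lines responded alike. The linear-scale and list comparisons were not made for this contrast.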

How the data were processed

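Values were the deposited TPM per gene symbol, made by the authors. Per the submitters' processing notes, kallisto and edgeR were used with hg38, and neither versions nor annotation were given in the sources used here. TPM keep no read numbers, so depth is unknown and the spread between libraries sets the precision. Library totals were 974989 to 977130 TPM. Columns of NT and TKO are numbered 2 and 3 while the titles say 1 and 2, so columns were assigned by group and named by column number.

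Genes that reached 1 TPM in 2 or more of the 12 libraries were analysed (13299 of 35587 symbols, 13232 matched to GENCODE 29). The scale was log2(TPM + 1), which understates changes of low genes. limma 3.58.1 in R 4.3.3 fitted 1 mean per group over all 12 libraries with a variance trend (6 residual degrees of freedom, 10.8 after moderation). Tests were two-sided, with Benjamini-Hochberg adjustment over all genes at 0.05. With 2 libraries against 2 an exact permutation test cannot go below 0.333. Errors are standard errors of the fit, and those of linear differences come from the library standard deviations. Tested on simulated data, it found 70% of 100 genes set to differ by 1 and 94% of 100 set to differ by 2, with 7 false calls (4.09% of calls) among 13299 genes. The genes set to differ had a mean log2(TPM + 1) above 2, and noise was independent between genes and libraries. Changes of low genes and shifts shared by the genes of a library were not simulated, so these shares do not cover them.

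Named genes were TSPAN14, NOTCH1, the Notch repressor targets, the 15 largest called differences in each direction whose highest group mean reached 5 TPM, up to 4 genes of each list with the smallest p, and, among genes with both responses called in 1 direction and no called difference, the 12 with the largest called IgG differences. Other genes the text names were chosen after their values were seen. The members, lists and tests were chosen with earlier results of these data known. The 25 lists come from textbook knowledge. Alternatives were a pseudocount of 0.1, no filter, a mean of at least 5 TPM, 2 rescalings, leaving out KPNA2P2, a replicate block, no trend, 8 libraries only, a linear scale, other class rules and each library left out. Applying them to the classes, and the TKO minus NKO contrast, were added after the data were seen. Sequences are from RefSeq (GRCh38.p14). Figures used matplotlib 3.10.9.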

Additional observations from a re-analysis of the deposited data

Results flagged for a closer look

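Each value here is a difference between the DLL4 responses of the TKO and NT lines that passed limma's test of the difference itself (adjusted p under 0.05), on log2(TPM + 1). There were 70 such genes, and the 30 named by size are given with the number of the 8 fits with a library left out in which the call held.

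The negative values that held in 8 of 8 were IL33 at -2.67, ACP5 at -2.50, ARHGEF17 at -1.63, CDKN2B at -1.55 and RGCC at -1.39. GJA4 at -2.53 and ADAM19 at -1.65 held in 7, DEPP1 at -1.91 in 6, AC009093.8 at -2.02 in 4 and MT1E at -1.36 in 3. STARD4 at -1.35 held in 1, and PTGS2 at -2.69, CCDC102B at -1.99, RND1 at -1.79 and F2RL2 at -1.38 held in 0.

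Of the positive values MFNG at 1.99 held in 8 of 8 and HES1 at 1.43 in 6. PDE1A at 2.39, PDGFB at 0.90 and AGFG2 at 0.87 held in 3, and CA2 at 2.20 and PDE2A at 1.09 in 2. ART4 at 1.55, KRT80 at 1.45, GIMAP6 at 1.32, TBC1D2 at 0.98 and DIPK1B at 0.93 held in 1. MT1X at 0.95, LY6K at 0.88 and ADM at 0.84 held in 0.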

How the results depend on the processing

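The 70 calls (26 positive, 44 negative) became 108 (51 and 57) with a mean of at least 5 TPM, where 59 of the 70 were called and 11 not tested, and 141 (51 and 90) with quantile normalisation, which kept 68. Median-of-ratios rescaling gave 95 (29 and 66, 62 kept), leaving out KPNA2P2, a pseudogene entry with 0.329% to 5.61% of a library's TPM, 94 (29 and 65, 68 kept), no filter 83 (44 kept), a pseudocount of 0.1 59 (53 kept), no variance trend 52 (37 kept) and a fit of the 8 libraries alone 104 (67 kept). The replicate number as a block gave 93 (62 kept), with 38 genes apart on both coatings in 1 direction. Same-numbered libraries correlated at -0.0411 to 0.0902 in their deviations. The highest values were between the lines on IgG (0.0902) and on DLL4 (0.0699). Whether libraries with the same number share a culture or batch was not tested. Over the 8 fits with a library left out, which assume that the lone library varies like the other groups, the ranges were 8 to 76 calls (1 to 25 positive, 5 to 51 negative), 2424 to 3445 genes apart on IgG, 2315 to 3629 on DLL4, 958 to 2230 responding in NT and 302 to 761 in TKO cells. Genes apart on DLL4 only, on IgG only, on both in 1 direction, on both in opposite directions and on neither numbered 4 to 30, 0 to 14, 2 to 16, 1 to 16 and 0 to 0 there. Those apart on DLL4 only were 39 with no filter, 38 with a mean of at least 5 TPM and 47 with quantile normalisation. Those apart on IgG only were 13 with no filter, 17 with a mean of at least 5 TPM, 13 with median-of-ratios rescaling, 20 with quantile normalisation, 12 without KPNA2P2, 2 with no variance trend and 15 with 8 libraries. Those on both in 1 direction were 40 with a mean of at least 5 TPM, 55 with quantile normalisation and 39 with 8 libraries, and those in opposite directions 7 with no variance trend. With a level difference of at least 1 in place of the test, 10 were apart on both in 1 direction, 2 in opposite directions and 23 on neither. The sign turned for ART4 with a pseudocount of 0.1 (-0.74) and on the linear scale for GPRC5B (2.92 TPM) and SLC1A4 (4.92 TPM). The cause was not tested for any of these. Of the 70 genes 23 kept the call in each of the 9 other settings that tested them. TPM hold no depth, so low genes such as GJA4 have no counting limit.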
